A study of Mus musculus with 21 samples.

Results

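The splicing genes of the mouse cerebral cortex described here are the heterogeneous nuclear ribonucleoproteins (hnRNPs), the SR proteins, the SF3A and SF3B subunits of the U2 particle and the Snrp proteins of the small nuclear ribonucleoproteins (snRNPs). They were taken as every gene with a probe set of 1 symbol that begins with Hnrnp, with Srsf and a digit, with Sf3a or Sf3b and a digit, or with Snrp, and each gene was read from its probe set of highest mean. The rule gave 44 of the 12393 genes measured: 18 hnRNPs, 9 SR proteins, 9 SF3A and SF3B subunits and 8 Snrp genes. All 44 lay above the lowest value of the arrays in every mouse, as did 8366 of all genes.

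The arrays measured the cortex of 21 mice, with 1 array (Affymetrix MOE430A_v2.0) for each mouse. All mice were of a mixed C57BL/6J x C3HeJ background. Their transgenes were a human TDP-43 and tTA, a transactivator that switches the TDP-43 transgene on when doxycycline is removed, and the tissue was from mice 2 weeks off doxycycline. The 5 dNLS bigenic mice carried tTA and TDP-DeltaNLS, a TDP-43 whose nuclear localization signal is defective, in line NLS4. The 4 WT bigenic mice carried tTA and TDP-WT in line WT12, the 4 dNLS monogenic mice carried TDP-DeltaNLS without tTA in line NLS4, and the 8 nontransgenic mice, 6 of line NLS4 and 2 of line WT12, carried neither. Each TDP-43 protein was thus tested in 1 mouse line, so protein and line cannot be told apart. By label, males and females numbered 4 and 1 in dNLS bigenic, 1 and 3 in WT bigenic, 3 and 1 in dNLS monogenic and 4 and 4 in nontransgenic mice. No group carried tTA alone, so tTA itself and TDP-43 cannot be told apart where bigenic mice are set against the others. The promoter that drives tTA and the ages of the mice are not given in the labels.

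Splicing removes introns from new transcripts. The spliceosome is built from U snRNPs, most of which carry a ring of Sm proteins around their RNA. U1 recognises the start of the intron and U2, with SF3A and SF3B, its branch site. SR proteins bind exons and mostly help the spliceosome to choose them, whereas many hnRNPs, the family to which TDP-43 is related, bind introns or exons and often repress nearby sites. Several genes of both families adjust their own mRNA through alternative exons that lead to decay of the transcript.

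Values are log2 levels as deposited, and a difference of 1 is a doubling. The array medians ran from 5.76 to 6.05. The signal of beta-actin at its 3′ end minus that at its 5′ end, which grows as RNA is degraded or copied short, was 1.34 to 2.30 in dNLS bigenic, 1.37 to 1.43 in WT bigenic, 1.56 to 3.13 in dNLS monogenic and 1.46 to 8.20 in nontransgenic mice. Nontransgenic 6 (8.20) and nontransgenic 4 (4.70) had the highest values, and the counts, the medians and the changes of some members are also given without them. WT bigenic mice were lower than nontransgenic mice in this measure (two-sided exact permutation test, adjusted p = 0.0202), and the dNLS bigenic mice did not pass the test against any group (adjusted p of 0.198 to 0.635). Nontransgenic 1, labelled male, had a female pattern (Xist 11.97, Eif2s3y at the lowest value of 2.04), and the sexes of the other 20 arrays matched their labels. Neuronal markers summed to log2 levels of 15.04 to 15.49 over all arrays, and of the blood markers Hba-a1 was at the lowest value on all arrays.

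Of the 44 members, 16 fell, 1 rose and 27 did not pass in dNLS bigenic against nontransgenic mice, at an adjusted p below 0.05 (limma across all 12393 genes, with sex as a covariate and Benjamini-Hochberg adjustment). The background in the same comparison was 11.5% of all genes lower and 10.8% higher, and among the 8366 genes above the lowest value 16.8% were lower, whereas 36.4% of the members were lower. The members' median log2 change was -0.20, with 33 of 44 below 0, against a median of 0.00 over all genes and -0.02 over those above the lowest value. Against the same nontransgenic arrays, 31 of 44 were also below 0 in WT bigenic (median -0.11) and 31 of 44 in dNLS monogenic mice (-0.06). Of all genes above the lowest value, 53% were below 0 in dNLS bigenic, 54.9% in WT bigenic and 58.3% in dNLS monogenic mice. Without nontransgenic 4 and 6 the medians were -0.13 in dNLS bigenic, -0.07 in WT bigenic and 0.00 in dNLS monogenic mice. The dNLS bigenic median was -0.12 with the beta-actin difference as a covariate, with array weights or with the mean over the probe sets of each gene. By family, 9 of 18 hnRNPs, 3 of 9 SR proteins, 1 of 9 SF3 subunits and 3 of 8 Snrp genes fell, and the gene that rose was Snrpd3. The tissue is bulk cortex, so fewer cells of a type and less RNA per cell cannot be told apart.

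Without the 2 nontransgenic arrays of high beta-actin difference the count was 17 lower and 2 higher, and with that difference as a covariate it was 13 lower and 3 higher. The background was then 13% lower and 13.6% higher without the 2 arrays, and 12.8% lower and 14.1% higher with the covariate. With nontransgenic mice of line NLS4 alone the count was 15 lower and 3 higher, where 12.2% of all genes were lower and 10.9% higher. It was 7 lower and 1 higher when the fit held only the compared groups, where 7.81% of all genes were lower. Cell type markers moved in the same comparison: of 7 neuronal markers 2 fell (Nefl, the light neurofilament chain, and Gad1) and 1 rose (Rbfox3), of 6 astrocyte markers 1 fell (Aldh1l1), of 5 oligodendrocyte markers 1 fell (Mbp) and of 8 microglial markers 1 fell (Tmem119). The summed levels of these lists (log2) were 15.04 to 15.26 in dNLS bigenic against 15.14 to 15.49 in nontransgenic mice for neurons, 14.18 to 14.40 against 14.28 to 14.54 for astrocytes, 15.16 to 15.30 against 14.89 to 15.49 for oligodendrocytes and 13.48 to 14.30 against 13.75 to 14.19 for microglia. None of 7 endothelial and mural, 3 choroid plexus and 2 blood markers passed the test. The choroid plexus markers varied widely between arrays, with sums of 12.13 to 14.17 in dNLS bigenic and 10.59 to 13.87 in nontransgenic mice. Their median change was 1.12. The part of cell makeup in the changes of the members was not tested.

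**Figure D1:**
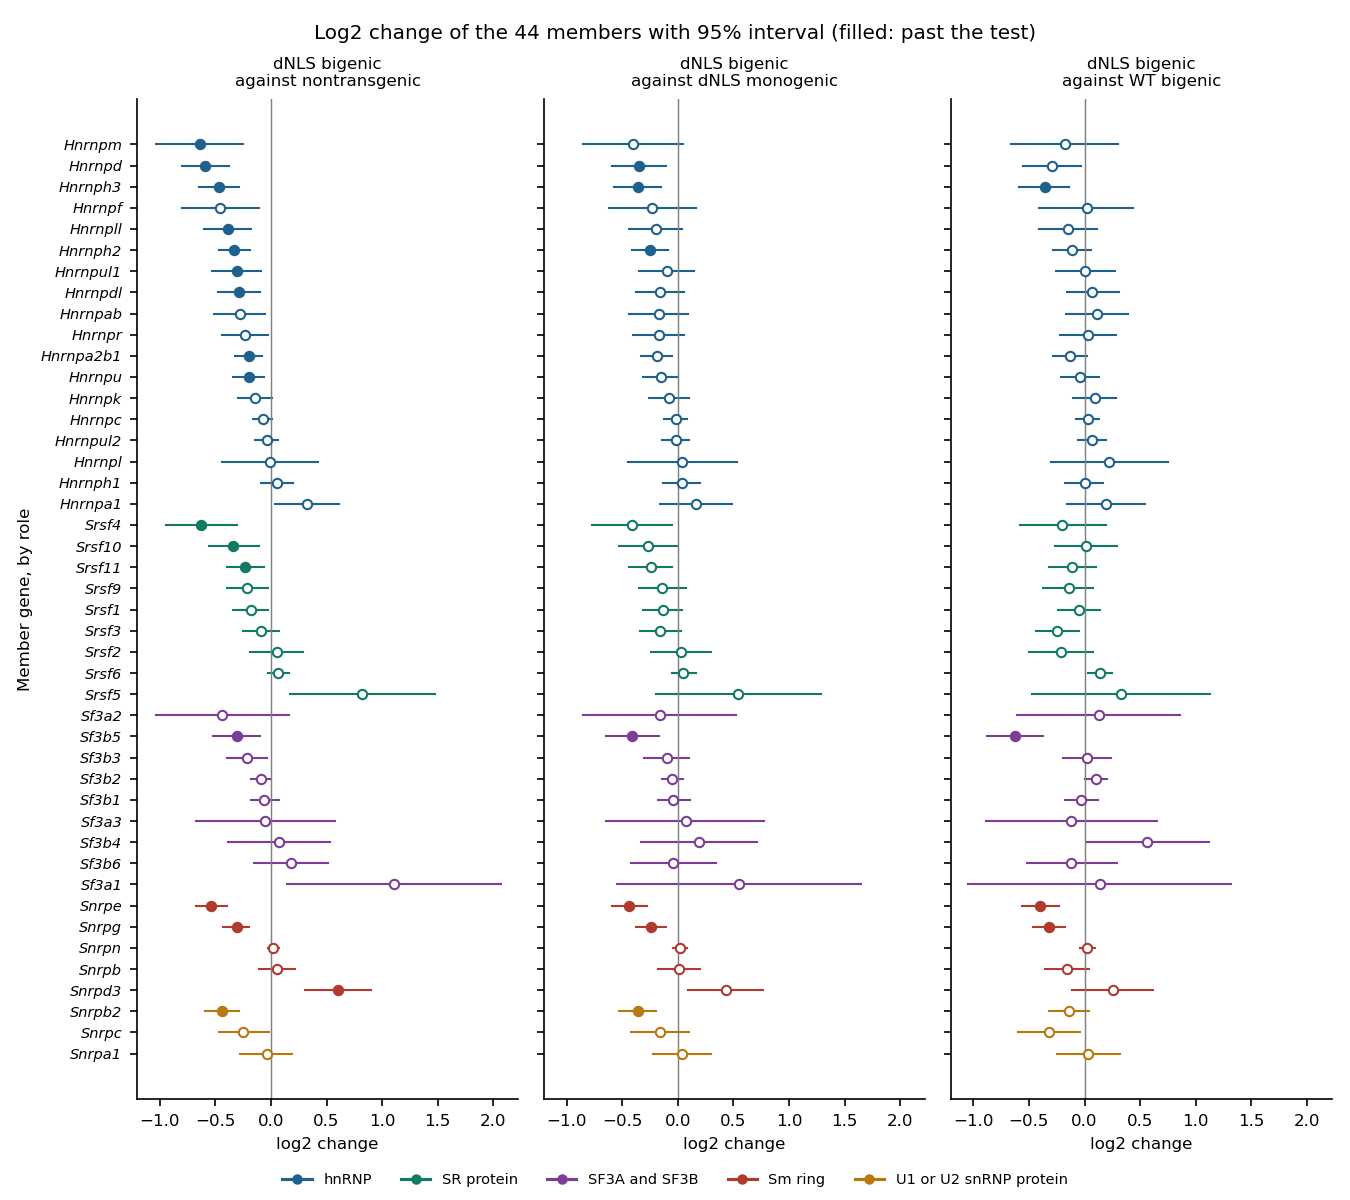
Log2 change of each of the 44 members (rows, ordered by role) in dNLS bigenic mice against nontransgenic, dNLS monogenic and WT bigenic mice, from left to right; bars are 95% intervals of the fit and filled points passed the test. Most hnRNPs lie left of 0 in the first panel, and 4 genes (Hnrnph3, Sf3b5, Snrpe and Snrpg) are filled on the left side in all 3 panels.

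Among the hnRNPs, none rose and 9 fell in dNLS bigenic against nontransgenic mice. Their median change was -0.26, with 16 of 18 below 0. In WT bigenic against nontransgenic mice the median was -0.23, also with 16 of 18 below 0, although none passed. In dNLS bigenic against WT bigenic mice it was 0.01. Hnrnpd, also called AUF1, binds AU-rich stretches that set mRNA lifetime. It had log2 levels of 10.65, 10.65, 10.56, 10.63 and 10.42 in dNLS bigenic mice, 10.86, 10.76, 10.78 and 10.85 in WT bigenic mice and 10.75, 11.14, 10.95 and 10.86 in dNLS monogenic mice, and 10.85, 11.15 and 11.48 (lowest, median and highest) in nontransgenic mice. All 5 dNLS bigenic arrays lay below the 16 others, and the level was 1.51-fold lower than in nontransgenic mice (log2 change -0.59 ± 0.10, SE, adjusted p = 2.9e-04 in limma). Hnrnph3, of the hnRNP H and F family that binds runs of G, had 11.02, 11.15, 11.12, 11.02 and 10.90 in dNLS bigenic mice, 11.43, 11.40, 11.29 and 11.50 in WT bigenic mice, 11.39, 11.48, 11.37 and 11.37 in dNLS monogenic mice and 11.32, 11.43 and 11.93 in nontransgenic mice. Here too the dNLS bigenic arrays lay below all others, at a level 1.39-fold lower than in nontransgenic mice (-0.47 ± 0.09, adjusted p = 5.8e-04 in limma). Its X-linked relative Hnrnph2 had 11.86, 11.80, 11.82, 11.90 and 11.56 in dNLS bigenic mice against 11.97, 12.11 and 12.26 in nontransgenic mice, which did not overlap (-0.33 ± 0.07, adjusted p = 0.00156 in limma). The WT bigenic arrays of Hnrnph2, at 11.70 to 11.97, overlapped the dNLS bigenic arrays.

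Hnrnpm, a splicing regulator that binds GU-rich RNA, also fell. Its levels were 10.74, 10.74, 10.69, 10.50 and 10.63 in dNLS bigenic mice, 10.72, 10.89, 10.65 and 10.72 in WT bigenic mice and 10.75, 11.15 and 12.07 in nontransgenic mice. The dNLS bigenic and nontransgenic groups touched without overlap, at a level 1.56-fold lower in dNLS bigenic mice (-0.64 ± 0.19, adjusted p = 0.0188 in limma). The WT bigenic arrays overlapped both of these groups. Nontransgenic 6 (12.07) and nontransgenic 4 (11.81) were its highest arrays, the same 2 with the highest beta-actin difference. Without both, its change was -0.42 (adjusted p = 0.00174 in limma), beside -0.49 for Hnrnpd (7.1e-05), and with the beta-actin covariate it was -0.36 (2.1e-04). In the fit of the compared groups alone it did not pass (0.0855). Hnrnpll, which controls exon use in Ptprc of mouse T cells, was lower by a log2 change of -0.39 ± 0.10. Its levels were 11.28 to 11.63 in dNLS bigenic, 11.59 to 11.68 in WT bigenic and 11.54 to 12.33 in nontransgenic mice, which overlapped. Its call was lost in the fit of the compared groups alone (adjusted p = 0.0547) and in the mean over its probe sets (0.135).

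The other 4 hnRNPs that fell changed less. Hnrnpul1, a relative of Hnrnpu, was at -0.31 ± 0.10 (adjusted p = 0.0433 in limma), Hnrnpdl, a close relative of Hnrnpd, at -0.29 ± 0.09 (0.0281), Hnrnpa2b1, which carries mRNA along cell processes, at -0.20 ± 0.06 (0.0161) and Hnrnpu, a nuclear scaffold protein, at -0.20 ± 0.07 (0.0366). Mean levels in WT bigenic mice were as low for Hnrnpul1 (10.12, beside 10.20 in dNLS bigenic mice), Hnrnpdl (11.82 beside 11.88) and Hnrnpu (13.05 beside 13.06). For Hnrnpa2b1 the WT bigenic mean was higher (12.87 beside 12.75). None of the 4 passed in WT bigenic against nontransgenic mice. The calls of these 4 in dNLS bigenic mice were less firm. Hnrnpa2b1 lost its call without dNLS bigenic 5 (adjusted p = 0.121) and Hnrnpdl without any 1 of dNLS bigenic 2, 4 or 5 or nontransgenic 4 (0.0506 to 0.109). Hnrnpu lost it without any 1 of dNLS bigenic 2, 3 or 5, nontransgenic 4 or WT bigenic 1 (0.0501 to 0.213). Hnrnpul1 lost it without any 1 of 14 arrays (dNLS bigenic 1, 3, 4 or 5, dNLS monogenic 2 or 3, nontransgenic 3, 4, 6 or 7, or any WT bigenic array), with adjusted p of 0.0518 to 0.162. Without nontransgenic 4 and 6, Hnrnpu (-0.14, 0.0711) and Hnrnpul1 (-0.23, 0.118) did not pass, and in the mean over its probe sets Hnrnpu was at -0.08 (0.768). The 9 hnRNPs that did not pass ran from -0.46 for Hnrnpf to 0.32 for Hnrnpa1, a repressor of exon inclusion. Of these, 7 were below 0. Without nontransgenic 6, Hnrnpf (-0.36, adjusted p = 0.0122 in limma), Hnrnpab (-0.22, 0.0153) and Hnrnpr (-0.18, 0.0294) passed as well, and Hnrnpf did so without nontransgenic 1, 5 or 8 (-0.51 to -0.49, 0.0319 to 0.0436). Hnrnpab also passed without nontransgenic 3 (0.0483) or 5 (0.0491). The WT bigenic means of Hnrnpf (12.20) and Hnrnpab (11.53) were below those of dNLS bigenic mice (12.28 and 11.70). Hnrnpk, which binds runs of C and had the highest mean of the family, was at -0.14 ± 0.07 (adjusted p = 0.211 in limma).

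**Figure D2:**
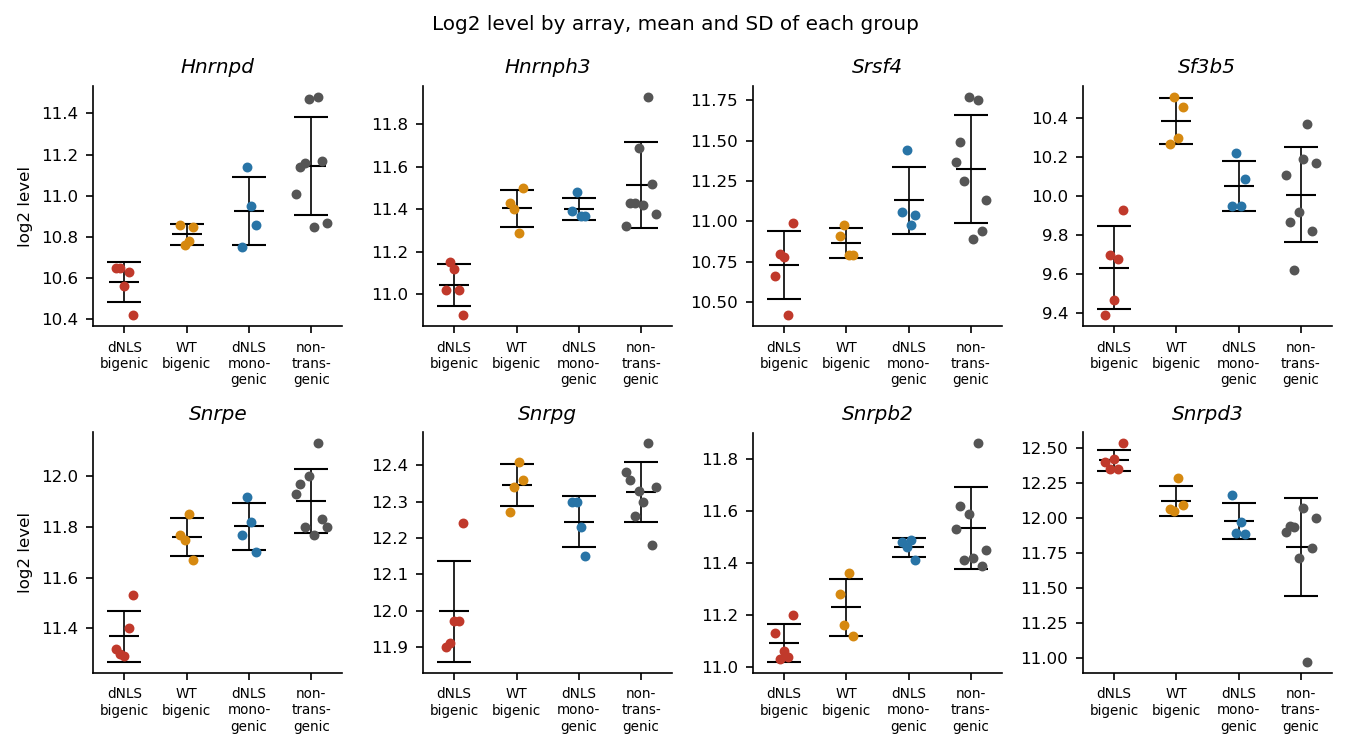
Log2 level of 8 members by array in dNLS bigenic (n = 5), WT bigenic (n = 4), dNLS monogenic (n = 4) and nontransgenic mice (n = 8); points are arrays, and lines are group means with SD. The dNLS bigenic arrays lie below all others for Hnrnpd, Hnrnph3 and Snrpe and above all others for Snrpd3.

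Of the SR proteins, 3 fell and none rose. Srsf4, a long SR protein also called SRp75, had 10.66, 10.80, 10.78, 10.42 and 10.99 in dNLS bigenic mice, 10.91, 10.98, 10.79 and 10.79 in WT bigenic mice and 11.06, 11.44, 10.98 and 11.04 in dNLS monogenic mice, and 10.89, 11.31 and 11.77 in nontransgenic mice. Its level was 1.54-fold lower in dNLS bigenic than in nontransgenic mice (-0.63 ± 0.15, adjusted p = 0.00506 in limma), although dNLS bigenic 5 overlapped the lowest nontransgenic arrays. Nontransgenic 4 (11.77) and nontransgenic 6 (11.75) were its highest arrays. Srsf4 passed in every alternative fit, also without both, with changes of -0.81 to -0.43. Srsf10, which represses splicing when dephosphorylated, was at -0.34 ± 0.11 (adjusted p = 0.0326 in limma). Its levels were 9.88 to 10.30 in dNLS bigenic, 10.01 to 10.26 in WT bigenic and 10.17 to 10.87 in nontransgenic mice. Srsf11, which helps neurons to include microexons, was at -0.23 ± 0.08 and close to the threshold (adjusted p = 0.0496 in limma). It had 10.71 to 10.89 in dNLS bigenic, 10.80 to 10.91 in WT bigenic and 10.61 to 11.21 in nontransgenic mice. The call of Srsf10 was lost without any 1 of dNLS bigenic 3, 4 or 5 or nontransgenic 3 or 4 (adjusted p of 0.0544 to 0.172), and in the mean over its probe sets its change was -0.10 (0.811). That of Srsf11 was lost without any 1 of 17 of the 21 arrays (0.0552 to 0.124), and held without dNLS bigenic 5 or nontransgenic 4, 5 or 6.

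Srsf5, also called SRp40, went the other way without passing the test, and is named here after its values were seen. Its levels were 13.10, 13.15, 13.13, 13.10 and 12.99 in dNLS bigenic mice, 12.81, 12.78, 12.72 and 12.79 in WT bigenic mice, 12.71, 12.04, 12.63 and 12.83 in dNLS monogenic mice and 10.54, 12.53 and 12.89 in nontransgenic mice. All 5 dNLS bigenic arrays lay above the 16 others, a separation whose share over all genes was not taken. The log2 change against nontransgenic mice was 0.82 ± 0.31 (adjusted p = 0.068 in limma). Nontransgenic 6 stood lowest at 10.54. Without it the change was 0.63 and passed (0.00312), as it did without nontransgenic 8 (0.89, 0.0491) and with the beta-actin difference as a covariate (0.34, 1.4e-04). The remaining 5 SR proteins, Srsf1, Srsf2, Srsf3, Srsf6 and Srsf9, lay between -0.22 and 0.06 and did not pass. Srsf1, the SR protein of highest mean, was at -0.18 ± 0.07 (adjusted p = 0.0862 in limma). It passed without nontransgenic 5 (-0.21, 0.0377) or nontransgenic 6 (-0.14, 0.0206), and Srsf9 without nontransgenic 6 (-0.17, 0.0357).

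In the SF3A and SF3B complexes, which hold U2 at the branch site, 1 of 9 subunits fell. Sf3b5, a small SF3B subunit, had 9.39, 9.70, 9.47, 9.68 and 9.93 in dNLS bigenic mice, 10.27, 10.51, 10.30 and 10.46 in WT bigenic mice, 9.95, 10.22, 9.95 and 10.09 in dNLS monogenic mice and 9.62, 10.02 and 10.37 in nontransgenic mice. The dNLS bigenic arrays lay below every WT bigenic and dNLS monogenic array and overlapped the nontransgenic ones. The log2 change was -0.63 ± 0.12 against WT bigenic mice (adjusted p = 0.0025 in limma), -0.41 ± 0.11 against dNLS monogenic mice (0.0197) and -0.31 ± 0.10 against nontransgenic mice (0.0312). The last call was lost without any 1 of dNLS bigenic 1 or 3 or nontransgenic 1 or 4 (adjusted p of 0.0544 to 0.0883), with the sex read from the data (0.0548) and without both nontransgenic 4 and 6 (-0.27, 0.0612). The mean over its probe sets gave -0.16 against nontransgenic mice (0.054), and -0.31 (0.00572) and -0.20 (0.0382) against WT bigenic and dNLS monogenic mice. The call against dNLS monogenic mice was lost without dNLS bigenic 1 or 3 or dNLS monogenic 2 (0.0503 to 0.0815). The large subunit Sf3b1, which clamps the branch site, was at -0.06 ± 0.06 against nontransgenic mice, and Sf3a1 at 1.11 ± 0.46. Sf3a1 varied widely, with 9.50 to 10.55 in dNLS bigenic and 6.99 to 10.21 in nontransgenic mice, and neither passed (adjusted p = 0.644 for Sf3b1 and 0.1 for Sf3a1 in limma). Sf3b3, at -0.22 ± 0.08 (0.0703), passed without dNLS bigenic 5 (-0.32, 0.0121) and without nontransgenic 5 (0.0419) or 7 (0.0454).

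The Sm ring genes split. Snrpe, which encodes SmE, had 11.32, 11.30, 11.29, 11.40 and 11.53 in dNLS bigenic mice, 11.77, 11.75, 11.85 and 11.67 in WT bigenic mice, 11.77, 11.92, 11.82 and 11.70 in dNLS monogenic mice and 11.77, 11.88 and 12.13 in nontransgenic mice. No dNLS bigenic array reached any other array. The level was 1.45-fold lower than in nontransgenic mice (-0.54 ± 0.06, adjusted p = 9.4e-06 in limma). Snrpg, which encodes SmG, the neighbour of SmE in the ring, had 11.90, 11.91, 11.97, 11.97 and 12.24 in dNLS bigenic mice, 12.27, 12.34, 12.41 and 12.36 in WT bigenic mice, 12.30, 12.30, 12.23 and 12.15 in dNLS monogenic mice and 12.18, 12.33 and 12.46 in nontransgenic mice. Only dNLS bigenic 5 (12.24) overlapped the dNLS monogenic and nontransgenic arrays, and the change against nontransgenic mice was -0.31 ± 0.06 (adjusted p = 4.3e-04 in limma).

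Snrpd3, which encodes SmD3, was the one member that rose. Its levels were 12.40, 12.35, 12.42, 12.35 and 12.53 in dNLS bigenic mice, 12.06, 12.05, 12.28 and 12.09 in WT bigenic mice, 12.16, 11.89, 11.97 and 11.88 in dNLS monogenic mice and 10.97, 11.92 and 12.07 in nontransgenic mice. All dNLS bigenic arrays lay above all others, again without a share over all genes to set beside it. The log2 change against nontransgenic mice was 0.60 ± 0.14 (adjusted p = 0.00414 in limma). Nontransgenic 6 was its lowest array (10.97). The change was 0.43 ± 0.16 against dNLS monogenic mice (0.0875) and 0.26 ± 0.17 against WT bigenic mice (0.481), neither past the test. Without nontransgenic 6, which enters these comparisons through the shared spread and the sex term, both passed (0.44, 3.9e-04 and 0.32, 0.011). Snrpb, which encodes SmB, was at 0.05 ± 0.08 against nontransgenic mice. Snrpn, the neuronal SmN, was read from a nearly constant probe set, with group means of 9.07 in dNLS bigenic, 9.04 in WT bigenic, 9.05 in dNLS monogenic and 9.04 in nontransgenic mice.

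Of the proteins particular to U1 and U2, Snrpb2, the U2 protein B″ that binds a stem-loop of U2 RNA, fell. It had 11.13, 11.03, 11.06, 11.04 and 11.20 in dNLS bigenic mice, 11.28, 11.16, 11.36 and 11.12 in WT bigenic mice, 11.48, 11.46, 11.49 and 11.41 in dNLS monogenic mice and 11.39, 11.49 and 11.86 in nontransgenic mice. Both bigenic groups lay below all dNLS monogenic and nontransgenic arrays and overlapped each other. The change against nontransgenic mice was -0.44 ± 0.07 in dNLS bigenic mice (adjusted p = 1.7e-04 in limma) and -0.30 ± 0.07 in WT bigenic mice (0.0426). Snrpa1, its partner U2 A′, was at -0.04 ± 0.11 and the U1 protein Snrpc at -0.25 ± 0.11 in dNLS bigenic against nontransgenic mice, and neither passed (adjusted p = 1 and 0.122 in limma), although Snrpc did without nontransgenic 3 (-0.30, 0.0472).

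Promoter windows of 4 of these genes are printed because their mRNAs moved in dNLS bigenic mice, with Snrpe, Snrpg and Snrpb2 lower and Snrpd3 higher. Each window runs from 250 bases before to 50 bases after the start in RefSeq (build GRCm38.p6), 5′ to 3′ on the gene's strand. Capitals mark matches on either strand to CCGGAAG, a core bound by ETS factors, TCGCGAGA, a palindromic promoter element, GGGCGG, the GC box, and CCAAT. The coordinates are chr1:133610231-133610530 on the minus strand for Snrpe, and on the plus strand chr6:86371290-86371589 for Snrpg, chr2:143062819-143063118 for Snrpb2 and chr10:75517792-75518091 for Snrpd3.
Snrpe: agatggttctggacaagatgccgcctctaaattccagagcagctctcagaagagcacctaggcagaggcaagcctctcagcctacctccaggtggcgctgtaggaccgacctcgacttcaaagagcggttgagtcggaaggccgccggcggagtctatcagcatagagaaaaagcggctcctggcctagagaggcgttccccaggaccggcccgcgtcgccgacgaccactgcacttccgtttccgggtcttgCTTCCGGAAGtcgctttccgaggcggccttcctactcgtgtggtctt
Snrpg: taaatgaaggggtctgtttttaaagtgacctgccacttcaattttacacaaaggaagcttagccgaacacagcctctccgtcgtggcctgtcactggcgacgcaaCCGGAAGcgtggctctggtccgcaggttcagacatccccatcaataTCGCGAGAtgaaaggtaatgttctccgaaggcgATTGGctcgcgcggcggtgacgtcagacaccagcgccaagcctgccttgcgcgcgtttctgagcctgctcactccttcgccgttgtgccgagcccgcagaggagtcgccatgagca
Snrpb2: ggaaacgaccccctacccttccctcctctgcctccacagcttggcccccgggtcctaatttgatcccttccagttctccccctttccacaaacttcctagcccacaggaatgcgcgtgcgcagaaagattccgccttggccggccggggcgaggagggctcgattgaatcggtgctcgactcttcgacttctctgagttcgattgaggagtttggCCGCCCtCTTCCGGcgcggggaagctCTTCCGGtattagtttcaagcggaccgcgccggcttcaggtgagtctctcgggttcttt
Snrpd3: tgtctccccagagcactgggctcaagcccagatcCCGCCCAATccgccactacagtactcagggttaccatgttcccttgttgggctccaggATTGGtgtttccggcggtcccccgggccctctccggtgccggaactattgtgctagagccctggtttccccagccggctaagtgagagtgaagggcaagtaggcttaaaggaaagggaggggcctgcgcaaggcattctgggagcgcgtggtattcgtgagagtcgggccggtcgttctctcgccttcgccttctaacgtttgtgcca
The Snrpe run of capitals is a pair of overlapping ETS cores, 1 on each strand, and the first run of Snrpd3 is a GC box overlapping a CCAAT box. Of the 44 members, 39 had a window. CCGGAAG was in 36.4% of their 55 windows against 8.86% of all 32851 windows, in 15 of the 39 members, and in 6 of the 14 that fell and had a window. TCGCGAGA was in 9.09% against 0.995%, in 4 genes (Hnrnph3, Snrpg, Srsf10 and Srsf4), all among those that fell. GGGCGG was in 67.3% against 35.7%, in 27 of the 39 members and 10 of the 14 that fell. CCAAT was in 45.5% against 37.4%, in 20 of the 39 and 5 of the 14. TATAAA was in 10.9% against 13.6% and CACGTG in 7.27% against 7.15%. The shares over all windows were not limited to genes above the lowest value on all arrays, as all members were. No share was taken for such genes, so these differences cannot be read as particular to the members. These are letter matches without a test, and binding was not measured.

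The dNLS bigenic mice were set next against the mice with the same transgene but no tTA. In this comparison 7 members fell and none rose, where 6.54% of all genes were lower and 7.76% higher, and 9.59% and 11% of those above the lowest value. The members that fell were Snrpe (-0.44 ± 0.07, adjusted p = 4.4e-04 in limma), Snrpb2 (-0.36 ± 0.08, 0.00402), Snrpg (-0.24 ± 0.06, 0.0125), Hnrnph3 (-0.36 ± 0.10, 0.0178), Sf3b5, Hnrnph2 (-0.25 ± 0.08, 0.0379) and Hnrnpd (-0.35 ± 0.11, 0.0486). The count fell to 4 without dNLS bigenic 3, without dNLS bigenic 5 or without dNLS monogenic 2. Snrpe stayed past the test in all 33 alternatives of this comparison. Hnrnpd lost its call without any 1 of 15 arrays (every dNLS bigenic and WT bigenic array, dNLS monogenic 2, 3 or 4, or nontransgenic 2, 3 or 7), with adjusted p of 0.0549 to 0.164. Hnrnph2 lost it without any 1 of dNLS bigenic 2, 3 or 5 or dNLS monogenic 2, 3 or 4 (0.0601 to 0.149), and Hnrnph3 without dNLS bigenic 5 (0.0556) or dNLS monogenic 2 (0.0558). Snrpb2 lost its call in the mean over its probe sets (-0.20, 0.0895) and Snrpg in the fit of the compared groups alone (0.07). Centring each array on its median ended the calls of Hnrnpd (0.12), Hnrnph2 (0.113) and Hnrnph3 (0.0677). Of 7 neuronal markers 1 fell here (Nefl, -0.46 ± 0.08, adjusted p = 0.00102 in limma), and no other listed marker passed. Median changes were -0.20 (neurons), -0.15 (astrocytes) and -0.49 (microglia). Summed levels were 15.04 to 15.26 in dNLS bigenic against 15.29 to 15.47 in dNLS monogenic mice for neurons. They were 14.18 to 14.40 against 14.39 to 14.50 for astrocytes and 13.48 to 14.30 against 13.94 to 14.07 for microglia. The part of cell makeup was not tested.

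The dNLS bigenic mice were then set against WT bigenic mice, where protein and line cannot be told apart. Sex by label was also unequal there, with 4 males among 5 dNLS bigenic mice and 1 male among 4 WT bigenic mice. Here 4 members fell, Sf3b5, Snrpe (-0.40 ± 0.08, adjusted p = 0.00284 in limma), Snrpg (-0.32 ± 0.07, 0.0048) and Hnrnph3 (-0.36 ± 0.10, 0.033), and none rose, where 4.53% of all genes were lower and 6.24% higher. Among genes above the lowest value the shares were 6.63% lower and 8.87% higher. The members' median was -0.02. Centring each array on its median left 1 of the 4, Sf3b5. The call of Hnrnph3 was also lost without any 1 of dNLS bigenic 1, 4 or 5 or WT bigenic 1, 2 or 4 (adjusted p of 0.0524 to 0.144). Without nontransgenic 6, Hnrnpd (-0.32, 0.0367) and Snrpc (-0.35, 0.0267) passed as well in limma. Sf3b5, Snrpe, Snrpg and Hnrnph3 were lower in dNLS bigenic mice than in each of the other 3 groups, which held for 3.24% of all genes. The 3 comparisons share the dNLS bigenic arrays. Cell type markers moved here too, with 2 of 8 microglial markers lower (Tmem119 at -0.88 ± 0.18, adjusted p = 0.00373 in limma, and Ctss at -0.57 ± 0.18, 0.0482), 1 of 6 astrocyte markers (Aldh1l1 at -0.60 ± 0.14, 0.0114) and 1 of 7 neuronal markers (Nefl at -0.43 ± 0.09, 0.00482). The median change was -0.84 over the microglial, -0.39 over the astrocyte and -0.10 over the neuronal markers. Their summed levels were 13.48 to 14.30 in dNLS bigenic against 14.15 to 14.94 in WT bigenic mice for microglia, 14.18 to 14.40 against 14.40 to 14.89 for astrocytes and 15.04 to 15.26 against 15.23 to 15.39 for neurons. Their part in the changes of the members was not tested. Of all genes, 3.05% had all 5 dNLS bigenic arrays below the 16 others, as Hnrnpd, Hnrnph3 and Snrpe did, and 5.68% had them below all 8 nontransgenic arrays, as 7 members did. These shares, like the 3.24%, are over all 12393 genes and were not taken for genes above the lowest value alone. No share was taken for genes with all dNLS bigenic arrays above the others, as for Snrpd3 and Srsf5, or for the other separations named here.

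WT bigenic against nontransgenic mice gave 2 members lower and none higher, with a background of 1.54% lower and 0.686% higher (2.26% and 0.992% of genes above the lowest value). They were Snrpb2 and Sf3b2, an SF3B subunit that touches RNA beside the branch site. Sf3b2 had 12.62, 12.63, 12.57 and 12.58 in WT bigenic mice against 12.70, 12.82 and 12.92 in nontransgenic mice, without overlap (-0.20 ± 0.04, adjusted p = 0.028 in limma). Neither call held without any 1 of the WT bigenic arrays (0.0541 to 0.114 for Sf3b2 and 0.0772 to 0.116 for Snrpb2). With the 2 nontransgenic mice of line WT12 as the only controls, the adjusted p was 0.234 for Sf3b2 and 0.229 for Snrpb2. Snrpb2 was also lost without any 1 of dNLS bigenic 1 to 4, the dNLS monogenic arrays or nontransgenic 1, 2 or 4 (from 0.0522). At an unadjusted p below 0.05 the comparison held 24 of the 44 members, beside 18.5% of all genes and 26.5% of those above the lowest value. WT bigenic mice also differed from nontransgenic mice in the beta-actin measure. With that measure as a covariate Snrpb2 was at -0.19 and did not pass (adjusted p = 0.062 in limma), while Sf3b2 did. The members' median moved from -0.11 to -0.06, and 0.847% of all genes were lower. The cause of these shifts was not tested. In dNLS monogenic against nontransgenic mice no member passed (limma, 1 of 44 at an unadjusted p below 0.05, beside 1.58% of all genes), and 0% of all genes did. The members' changes there ran from -0.27 to 0.56.

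Several probe sets read 30 of the 44 genes, and 14 genes had 1. Over the 115 probe sets of the members, in a fit of all 20380 probe sets of 1 symbol, 26 were lower and 4 higher in dNLS bigenic than in nontransgenic mice, against 9.48% lower and 10.2% higher in that fit. Among all 22626 non-control probe sets the shares were 9.29% lower and 10.1% higher. Of the 17 members past the test, 10 had several probe sets, and a second one passed in the same direction for 5 (Hnrnpa2b1, Hnrnpu, Snrpb2, Snrpd3 and Snrpg). The second probe set of Snrpg changed by -0.51 and that of Snrpd3 by 0.45. None of the 17 had a probe set that passed in the opposite direction.

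Probe sets of lower mean passed for 6 genes whose first did not, named here after their values were seen. Srsf1, the most studied SR protein, had 3 of 5 others lower (-0.32, -0.35 and -0.40), and Srsf3 had a pair lower (-0.29 and -0.25). Hnrnpk (-0.25) and Sf3a1 (-0.53) each had 1 lower, while Hnrnpab (0.20) and Hnrnpul2 (0.24) each had 1 higher. Sf3a1 thus had its first probe set at 1.11, not past the test, and its other lower. For Hnrnpdl the mean over its 6 probe sets gave a change of 0.04, the opposite sign of its first. In the same mean Snrpb2 was at -0.20 (adjusted p = 0.0343 in limma), Snrpd3 at 0.36 (0.00112) and Srsf11 at -0.36 (0.00423), all still past the test.

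**Figure D3:**
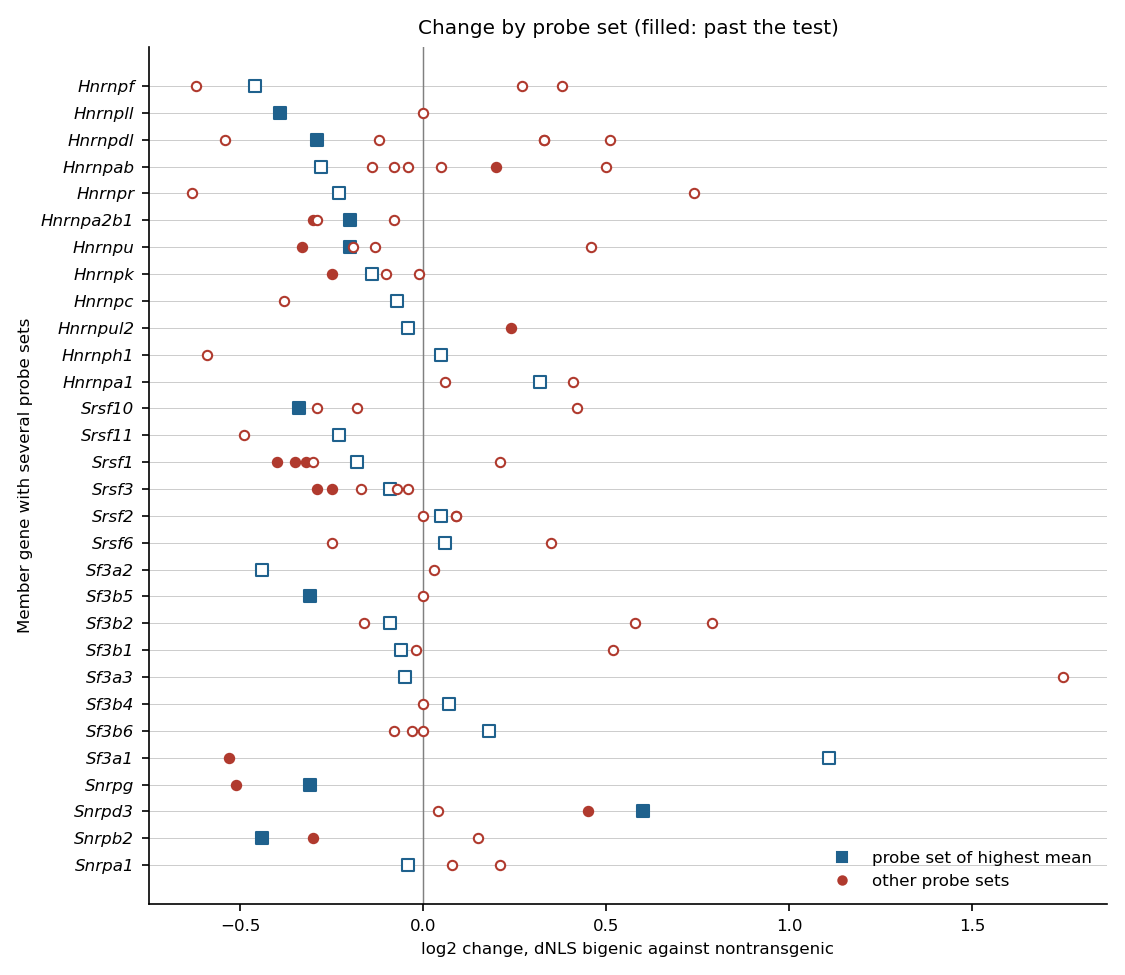
Log2 change in dNLS bigenic against nontransgenic mice for each probe set of the 30 members that have several, with the probe set of highest mean as a square and the others as circles; filled symbols passed the test in the fit of every probe set. The probe sets of Snrpg lie together left of 0, whereas those of Hnrnpdl, Hnrnpab and Sf3b2 lie on both sides.

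Another 14 probe sets name a member or a family gene together with further symbols and were outside the rule. In dNLS bigenic against nontransgenic mice, 3 fell and 5 rose. The 3 that fell are of Hnrnpa3, shared with Gm6793. In one the levels were 10.93, 11.06, 10.93, 11.05 and 10.90 in dNLS bigenic mice, 11.72, 11.74, 11.50 and 11.68 in WT bigenic mice, 11.78, 11.62, 11.75 and 11.79 in dNLS monogenic mice and 11.66, 11.78 and 11.98 in nontransgenic mice. Every dNLS bigenic array lay below all others, with a change of -0.80 ± 0.06 against nontransgenic mice (adjusted p = 4.0e-08 in limma), larger than that of any member that fell. The other probe sets of Hnrnpa3 changed by -0.55, -0.27 and, not past the test, 0.14. The 5 that rose were 3 shared by Snurf and Snrpn (0.24, 0.32 and 0.15), 1 of Snrpd2 and Gm5848 (0.44) and 1 of Hnrnpa1 and related symbols (0.58).

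The wider splicing machinery was read from 8 lists of 138 genes, of which 110 were measured. In dNLS bigenic against nontransgenic mice 24 fell (21.8%) and 8 rose (7.27%), beside 11.5% and 10.8% of all genes. All but 1 of the 110 lay above the lowest value on every array, and among all genes that did so 16.8% were lower and 15.3% higher. Against dNLS monogenic and against WT bigenic mice alike 6 of the 110 fell (5.45%) and 5 rose (4.55%). Among all genes above the lowest value, 9.59% were lower and 11% higher against dNLS monogenic mice, and 6.63% and 8.87% against WT bigenic mice. Among hnRNP relatives under other names, 4 of 18 fell and 1 rose: the cold-inducible Cirbp was at -0.86 ± 0.23 (adjusted p = 0.0128 in limma), and Syncrip, also called hnRNP Q, at 0.66 ± 0.10 (1.0e-04). Pcbp3, Matr3 and Tardbp made up the rest. Tardbp, the mouse gene for TDP-43, was at -0.23 ± 0.07 (0.0212), and whether its probe set also reads the human transgene was not tested. Of 12 snRNP proteins under Snrnp and Lsm names 4 fell, Snrnp40, Lsm8, Lsm3 and the U1 protein Snrnp70, and none rose. Lsm8, which marks the nuclear ring on U6, was at -0.47 ± 0.08 (2.6e-04).

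Of 12 U2 auxiliary and branch site factors, Rbm17, Dhx15 and Htatsf1 fell and Phf5a, an SF3B subunit under another name, rose by 0.29 ± 0.08 (adjusted p = 0.0151 in limma). Of 25 Prp and tri-snRNP factors 7 fell, among them Bcas2 (-0.73 ± 0.18, 0.00588), and 3 rose. Txnl4a, a small U5 protein, was the most changed of these, at 10.71 to 10.86 in dNLS bigenic mice, 10.05 to 10.21 in WT bigenic mice, 10.09 to 10.26 in dNLS monogenic mice and 9.45 to 10.23 in nontransgenic mice. It did not overlap any group (0.83 ± 0.10 against nontransgenic mice, 8.9e-06). In the assembly of snRNPs by the SMN complex, Gemin7 rose by 1.22 ± 0.29 (0.00512) and Gemin2 (-0.90 ± 0.27, 0.0202), Clns1a and Strap fell, of 10 measured. Of 18 SR-related proteins 3 fell (Luc7l2, Ddx17 and Tra2a) and 1 rose (Rsrc1), of 9 SR kinases and a phosphatase regulator 1 fell (Prpf4b, also among the 7 Prp factors) and of 7 factors of nonsense-mediated decay 1 rose (Casc3). In WT bigenic against nontransgenic mice Phf5a also rose (0.35 ± 0.09, adjusted p = 0.0451 in limma). Matr3 (-0.29 ± 0.07, 0.0491) and Tra2a (-0.41 ± 0.10, 0.0418) fell there, and no other listed gene passed. Gemin7 was at 8.61 to 8.77 in dNLS bigenic, 8.44 to 8.55 in WT bigenic, 7.36 to 7.99 in dNLS monogenic and 5.78 to 8.14 in nontransgenic mice.

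The 17 calls against nontransgenic mice were repeated under 35 alternatives, 21 of which left out 1 array each. Of these, 8 passed in all 35: Snrpe, Snrpg, Snrpb2, Snrpd3, Hnrnpd, Hnrnph2, Hnrnph3 and Srsf4. Snrpe ranged from -0.62 to -0.46 and Snrpd3 from 0.36 to 0.64. The fit of the compared groups alone ended the calls of the other 9. The beta-actin covariate ended those of Hnrnpdl, Hnrnpu, Hnrnpul1, Sf3b5 and Srsf10, and males alone by label those of Hnrnpa2b1, Hnrnpu, Hnrnpul1, Sf3b5 and Srsf10. The males by label include nontransgenic 1, which had a female pattern. The least firm were Srsf11, past in 12 alternatives, and Hnrnpul1, past in 14.

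**Figure D4:**
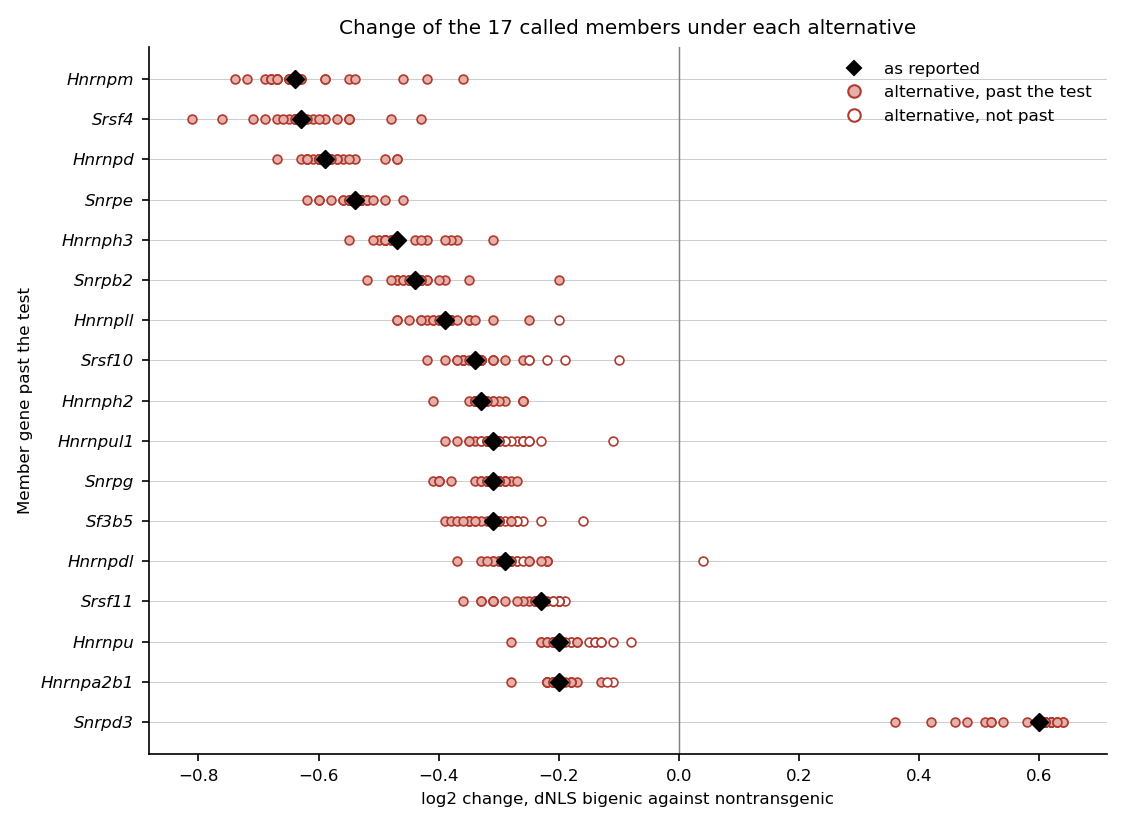
Log2 change in dNLS bigenic against nontransgenic mice of the 17 members past the test, as reported (diamond) and under each alternative (circles, filled where past the test). All circles of Snrpe, Hnrnpd and Snrpd3 are filled, whereas many of Srsf11 and Hnrnpul1 are open.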

How the data were processed

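Cerebral cortex RNA of 21 mice was extracted with TRIzol (RIN of 7 or greater), amplified from the poly(A) tail, labelled with biotin and hybridised to 1 array for each mouse, per the labels. The authors deposited log2 levels of 22690 probe sets. They span 2.04 to 15.1, from which the base of the logarithm was inferred, and Partek is named in the submitters' processing notes without a role. No source used here gives the steps from scanner image to level. Between 30.7% and 32.4% of the probe sets of an array lay at the lowest value, which compresses changes toward it, and the number of arrays limits the precision.

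Without the 64 controls, 20380 probe sets had 1 symbol in the supplied table, whose Entrez identifiers matched RefSeq (GRCm38.p6) for all but 29. Groups followed the labels. limma 3.58.1 (R 4.3.3; lmFit, eBayes with an intensity trend, 4 groups and sex) was fitted to all 21 arrays and 12393 genes, with Benjamini-Hochberg adjustment and a threshold of 0.05. Errors are those of the fit. Permutation p-values (scipy 1.17.1) are 2-sided, from the smaller tail. On simulated data for dNLS bigenic against nontransgenic mice over 12393 genes, 18%, 46%, 86% and 100% of changes of 0.25, 0.5, 1 and 2 (log2) were found. The simulation changed 50 genes at each size, far fewer than passed in the data (1336 higher and 1423 lower). It did not draw on the members alone, so these rates are not those of the members.

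The named members were those past the threshold, up to 12 in each direction, with the member of highest mean in each family and Tardbp. Hnrnpdl, Hnrnpa2b1, Hnrnpu and Srsf11 fell outside the 12 and were added after their values were seen. Members, lists and motifs were chosen with earlier results of these data known. Alternatives covered centring, quantile normalization, the sex term, the trend, array weights, dim genes, beta-actin as a covariate, probe set choice, subsets of mice and each array left out. Of these, controls of line WT12 alone and every non-control probe set were added after the data were seen.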

Additional observations from a re-analysis of the deposited data

Results flagged for a closer look

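In 19 of the 180 groups of 4, 5 or 8 arrays (4 groups for each of the 44 members and Tardbp), 1 array stood apart from the others by Dixon's criterion, which chance gives in about 1 in 20 groups. Nontransgenic 6, the array of highest beta-actin difference, stood apart in 6 genes: it was low in Snrpd3 (10.97), Srsf5 (10.54), Sf3b6 (10.57) and Hnrnph1 (12.44) and high in Hnrnpr (11.65) and Snrpa1 (10.42). The female dNLS bigenic 5 stood apart in 5: it was high in Snrpg (12.24) and Sf3a2 (10.34) and low in Srsf10 (9.88), Hnrnpab (11.50) and Hnrnpr (10.69). dNLS monogenic 2 was low in Hnrnpa1 (11.13) and Srsf2 (11.58) and high in Srsf6 (12.36), and dNLS monogenic 1 was low in Hnrnph2 (11.84). WT bigenic 1 was high in Hnrnpr (10.96). The nearly constant Snrpn had dNLS bigenic 1 (9.18), WT bigenic 4 (9.01) and nontransgenic 5 (9.02) apart from arrays at 9.04. The part of RNA quality and sex in these values was not tested.

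Sf3b5 (-0.63), Snrpe (-0.40), Snrpg (-0.32) and Hnrnph3 (-0.36) passed the threshold in the dNLS bigenic change minus the WT bigenic change. Because both changes share the nontransgenic controls, this is the comparison of dNLS bigenic against WT bigenic mice given above. It adds no further test, and protein and line cannot be told apart in it. Among probe sets that name several symbols, which the member counts do not use, dNLS bigenic exceeded nontransgenic mice for Snurf with Snrpn (0.24, 0.32 and 0.15), Hnrnpa1 with related symbols (0.58) and Snrpd2 with Gm5848 (0.44).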

How the results depend on the processing

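The counts of members past the threshold are given here as lower and higher. In dNLS bigenic against nontransgenic mice the 16 lower became 7 in the fit of the compared groups alone and 13 to 19 in the other 13 alternatives that change more than 1 array or the fit. The 1 higher became 2 with centred arrays, without dim genes or without nontransgenic 4 and 6. It became 3 with the beta-actin covariate, NLS4 controls or males alone by label, and 5 with array weights. Leaving out 1 array gave 11 to 20 lower and 1 to 2 higher. In dNLS bigenic against dNLS monogenic mice the 7 lower became 21 with array weights, 15 with the covariate and 13 without nontransgenic 4 and 6, as the share of all genes lower moved to 16.3%, 10.7% and 10.7%; the 0 higher became 1 with centring, the mean over probe sets or the compared groups alone, 2 with the covariate or without nontransgenic 4 and 6, and 5 with array weights. Leaving out 1 array gave 4 to 10 lower and 0 to 2 higher, the 2 higher without nontransgenic 6. In dNLS bigenic against WT bigenic mice the 4 lower became 1 with centring, 7 without nontransgenic 4 and 6, 9 with array weights and 10 with the covariate (3.02%, 8.09%, 11.7% and 8.95% of all genes); the 0 higher became 1 without nontransgenic 4 and 6, 3 with the covariate, 4 with the compared groups alone and 6 with array weights. Leaving out 1 array gave 3 to 6 lower and 0 to 1 higher, the 1 higher without dNLS bigenic 5 or nontransgenic 6. In WT bigenic against nontransgenic mice the 2 lower became 0 with quantile normalization, the mean over probe sets, the compared groups alone or WT12 controls, 1 with the covariate, 4 without the sex term and 7 with array weights, which also gave 2 higher; leaving out 1 array gave 0 to 4 lower, the 4 without nontransgenic 5, and 0 higher. In dNLS monogenic against nontransgenic mice the counts were 0 and 0 in every alternative run. The causes were not tested.

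The mean over probe sets reversed Hnrnpdl in dNLS bigenic mice (0.04) and Sf3b2 in WT bigenic mice (0.11), both against nontransgenic mice. No other call of a member turned its sign. Centring each array moved the median of all genes by -0.08 in dNLS bigenic and -0.11 in WT bigenic against nontransgenic mice, and the share of higher among all calls from 48.4% to 36.8% and from 30.8% to 8.91%. No paired analysis was possible because replicate numbers were given in accession order and pair no mice.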
